A study of Mus musculus with 6 samples.

Results

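The Ikaros zinc finger family of transcription factors was examined in CD4+CD8+ double positive (DP) thymocytes of WT mice and of mice with a conditional deletion of Nsrp1, the gene of the splicing factor NSrp70. Its members were taken by gene symbol, as Ikzf1 (Ikaros), Ikzf2 (Helios), Ikzf3 (Aiolos) and Ikzf5 (Pegasus), and these 4 genes were found among the 23183 symbols of every library. The data were 3 mRNA-seq libraries of sorted DP thymocytes from Nsrp1 f/f mice (WT) and 3 from Nsrp1 f/f CD4Cre mice (NSrp70-cKO), all C57BL/6 and 6 weeks old. The Cre transgene is driven by Cd4 regulatory sequence, and the study places the Nsrp1 deletion in late double negative thymocytes. The floxed Nsrp1 allele is shared by both groups, and the transgene is carried by the cKO mice alone. Effects of Cre and of the deletion therefore cannot be told apart. The labels do not say whether libraries of a group come from separate mice, so the p-values measure the spread between these libraries, which may be technical.

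Ikaros family proteins bind DNA through a cluster of zinc fingers near the amino end, many of them at sites with the core GGGAA, and pair with each other through a further cluster at the carboxyl end. In thymocytes, Ikaros recruits chromatin remodelling and deacetylase complexes, above all NuRD, and restrains genes driven by Notch as cells pass to the DP stage. Aiolos is induced on the way to the DP stage, Helios marks thymocytes that received strong self-antigen signals and regulatory T cells, and Pegasus is the most divergent member, with its own preferred DNA site. Splicing of Ikzf1 yields isoforms with and without DNA binding fingers. The values analysed here are summed over the isoforms of a gene and do not resolve them.

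On GRCm38 (mm10), with the GENCODE annotation, Ikzf1 (ENSMUSG00000018654) lies on the plus strand at chr11:11685003-11772926 and Ikzf3 (ENSMUSG00000018168) on the minus strand at chr11:98464902-98546031. Ikzf2 (ENSMUSG00000025997) lies on the minus strand at chr1:69531214-69687245, and Ikzf5 (ENSMUSG00000040167) on the minus strand at chr7:131388652-131410521. RefSeq windows around transcription starts, on GRCm38.p6, were found for 2 of the 4 genes. The windows of Ikzf1, the most abundant member, and the stretch shared by Ikzf5 and its head-to-head neighbour Acadsb, both of which were higher in cKO, are shown in the direction of Ikzf1 and of Ikzf5. Capitals mark the Ikaros core, searched as GGGAA on either strand (GGGAA or TTCCC as printed), 2 patterns that cannot overlap each other.
Ikzf1, 250 bases before the first RefSeq start, plus strand, chr11:11685675-11685924: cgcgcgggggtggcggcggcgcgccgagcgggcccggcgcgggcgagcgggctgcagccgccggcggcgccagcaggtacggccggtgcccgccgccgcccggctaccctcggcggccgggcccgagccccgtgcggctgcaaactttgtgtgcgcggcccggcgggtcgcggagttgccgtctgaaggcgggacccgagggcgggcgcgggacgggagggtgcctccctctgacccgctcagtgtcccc
Ikzf1, 250 bases before the second RefSeq start, plus strand, chr11:11689927-11690176: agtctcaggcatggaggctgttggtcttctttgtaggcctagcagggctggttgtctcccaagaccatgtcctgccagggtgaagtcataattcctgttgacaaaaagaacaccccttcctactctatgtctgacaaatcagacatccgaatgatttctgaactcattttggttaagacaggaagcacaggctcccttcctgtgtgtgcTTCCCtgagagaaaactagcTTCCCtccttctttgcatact
Ikzf5 and Acadsb, the 79 bases between their GENCODE ends, minus strand, chr7:131410522-131410600: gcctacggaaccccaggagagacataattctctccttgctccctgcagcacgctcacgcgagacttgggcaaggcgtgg
Of the 6 GENCODE transcripts of Ikzf1, none had an exonic base in either window. The first window lay in an intron of 2 of them and outside the other 4, and the second in an intron of all 6. The first window held no core and 82% of its bases were G or C, a larger share than in 99.3% of the 32851 RefSeq windows of its length. The second held 2 cores, both in the reverse orientation, and 47.6% of its bases were G or C. A core was present in 56.2% of all such windows, so a match in 1 of 2 is near the general rate. The stretch between Ikzf5 and Acadsb held no core, and 22.5% of the windows cut at the same place and length held one. A match is a description of letters and not of binding.

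Values are FPKM (fragments per kilobase of transcript and per unit of sequencing depth), which the authors calculated with Cufflinks, 1 value per gene symbol and library. Low values of single-transcript genes move in steps worth 1 fragment, which put the mapped depth at 20.7 to 20.8 M fragments in WT and 13.2, 20.7 and 17.4 M in cKO 1, 2 and 3 (M, mega). The FPKM values summed to 521296 to 531517 in WT and to 701396 to 850548 in cKO, while size factors from median ratios lay between 1.00 and 1.01. Nsrp1, the targeted gene (listed as Ccdc55), was at 20.2, 20.7 and 21.1 FPKM in WT and 17.7, 15.8 and 15.0 FPKM in cKO (log2 fold change -0.34, standard error 0.077, limma adjusted p = 0.00675), a cKO mean 78.1% of the WT mean. This value covers the whole gene and is not specific to the deleted part, so it does not measure how complete the deletion was. The spread between 2 libraries was measured on estimated fragments of single-transcript genes as a chi-square per gene, which is near 1 for counting noise alone. It was 1.50 to 1.59 between WT libraries, little beyond counting noise, and 28.1 to 66.4 between cKO libraries. This value compares variance with counting noise and is not a fold difference in expression. Xist was at 69.8 to 72.0 FPKM in WT and 4.07 to 5.44 FPKM in cKO, and 4 genes of chromosome Y were at 0 in every WT library and at 5.83 to 43.8 FPKM in cKO, so sex and genotype cannot be told apart. DP identity was checked on 10 markers, all of which were present in all 6 libraries, with 7 higher and 2 lower in cKO by the test described below.

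Every member was expressed in every library, and the order of the FPKM levels was Ikzf1, Ikzf3, Ikzf5, Ikzf2 in all 6. Neighbours in this order did not overlap within either genotype. In WT, Ikzf1 lay above 96.4% and Ikzf3 above 86.6% of the 10326 genes tested, while Ikzf5 lay above 59.7% and Ikzf2 above 53.3%. In cKO, the corresponding shares were 93.1%, 77.0%, 64.3% and 52.3%. If all fragments fell on the longest transcript of each gene, the members' values would rest on 1167 to 18991 fragments, with a counting error of 0.726% to 2.93%. The coefficient of variation between libraries was 0.417% to 2.51% in WT and 3.51% to 12.9% in cKO.

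The genotypes were compared with limma on log2(FPKM + 1) after scaling by size factors, over the 10326 genes that reached 1 FPKM in 3 or more libraries, with Benjamini-Hochberg adjustment. All 4 members passed that filter in both genotypes. Of the 4, Ikzf1 and Ikzf3 fell, Ikzf5 rose and Ikzf2 did not pass the test. A call was the common outcome of this fit, since 65.5% of all tested genes were called, 35.8% higher and 29.8% lower in cKO, so 3 called members of 4 are near that rate. The rate depended on the treatment of the WT libraries, as described below, and the study's own test on counts called fewer genes. In bulk samples, fewer cells of a type and less RNA per cell cannot be told apart.

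Ikzf1, which encodes Ikaros, was at 183.7, 180.7 and 184.7 FPKM in WT 1, 2 and 3, and at 131.4, 145.8 and 146.5 FPKM in cKO 1, 2 and 3. Each cKO library was lower than each WT library, and cKO 1 was the lowest. Groups failed to overlap in 72.5% of all tested genes, 39.1% with cKO above and 33.4% with cKO below, so separation of this kind was common. The scaled mean in cKO was 77.1% of that in WT, a log2 fold change of -0.37 (standard error 0.072, 95% confidence interval -0.55 to -0.20, limma adjusted p = 0.00339). A lower log2 fold change was found in 25.0% of all tested genes, so the decrease was moderate for these data.

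Ikzf3, which encodes Aiolos, was at 61.0, 61.0 and 61.8 FPKM in WT and at 46.5, 37.4 and 38.4 FPKM in cKO. The groups did not overlap, and cKO 1 lay closest to WT. The mean in cKO was 66.5% of that in WT, with a log2 fold change of -0.58 (standard error 0.094, 95% confidence interval -0.81 to -0.36, limma adjusted p = 0.00162). In this fit it was the largest change of the 4 members, and 15.8% of all tested genes had a lower value. Without cKO 1, the log2 fold change was -0.68 for Ikzf3 and -0.32 for Ikzf1, with adjusted p-values of 0.000489 and 0.00559.

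Ikzf5, which encodes Pegasus, was at 19.1, 20.0 and 20.1 FPKM in WT and at 20.9, 26.9 and 24.4 FPKM in cKO. All cKO libraries lay above all WT libraries, by 0.81 FPKM in the closest case, that of cKO 1 and WT 3. The mean in cKO was 122% of that in WT, with a log2 fold change of 0.26 (standard error 0.092, 95% confidence interval 0.045 to 0.48, limma adjusted p = 0.0388). The call was close to the threshold. It was lost when any one of the WT libraries was left out (adjusted p = 0.123, 0.0952 and 0.0881 without WT 1, 2 and 3) and without cKO 2 (0.0510) or cKO 3 (0.0999), and the log2 fold change was 0.065 (adjusted p = 0.472) once base composition and transcript length were regressed out, a fit in which 30% of all genes were called higher and 27.2% lower.

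Ikzf2, which encodes Helios, was at 16.0, 16.2 and 16.2 FPKM in WT and at 15.5, 16.5 and 15.3 FPKM in cKO. The groups overlapped, since cKO 2 lay above every WT library and the other two below. The log2 fold change was -0.031 (standard error 0.060, limma adjusted p = 0.669), and its 95% confidence interval of -0.17 to 0.11 bounds the difference between genotypes under this scaling only.

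**Figure D1:**
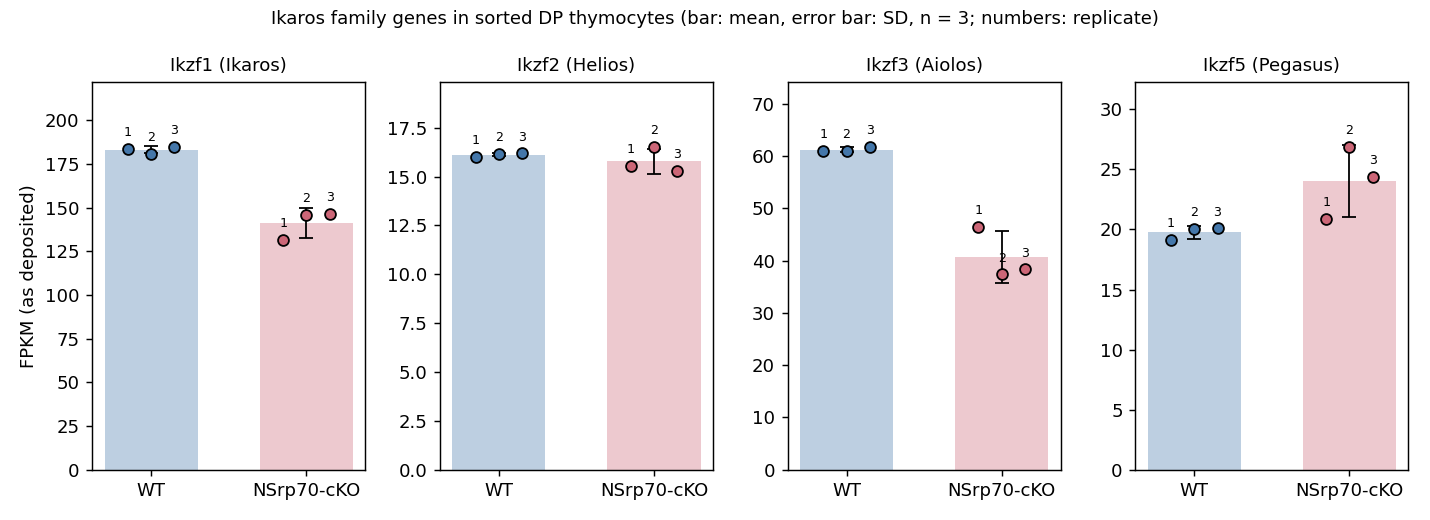
FPKM as deposited (vertical axis, from 0) of Ikzf1, Ikzf2, Ikzf3 and Ikzf5 in 3 WT and 3 NSrp70-cKO libraries; points are libraries with their replicate number, bars are means and error bars the SD. The cKO points of Ikzf1 (131.4 to 146.5) and Ikzf3 (37.4 to 46.5) sit below the WT points, those of Ikzf5 (20.9 to 26.9) above them, and those of Ikzf2 (15.3 to 16.5) on both sides.

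Some calls changed with the treatment of the WT libraries and with scaling. When the 3 WT libraries were averaged and entered as a single sample, whose spread is then assumed to be that of the cKO libraries, the log2 fold changes were the same and the standard errors were larger (0.194 against 0.072 for Ikzf1, 0.195 against 0.094 for Ikzf3 and 0.188 against 0.092 for Ikzf5). No member then passed the test (adjusted p = 0.190 for Ikzf1, 0.0773 for Ikzf3, 0.324 for Ikzf5 and 0.900 for Ikzf2), and 7.21% of all genes were called higher and 8.73% lower. With every library scaled to the same FPKM total, which moved the median of all genes from 0.039 to -0.45 on the log2 scale, Ikzf1 was at -0.93, Ikzf3 at -1.13, Ikzf2 at -0.56 (adjusted p = 0.00259) and Ikzf5 at -0.27 (adjusted p = 0.106). Relative to that median, Ikzf1 lay at -0.48, Ikzf3 at -0.68, Ikzf2 at -0.11 and Ikzf5 at 0.18, against -0.41, -0.62, -0.069 and 0.22 in the fit reported here. Quantile normalization gave log2 fold changes of -0.80 for Ikzf1 and -0.78 for Ikzf3.

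**Figure D2:**
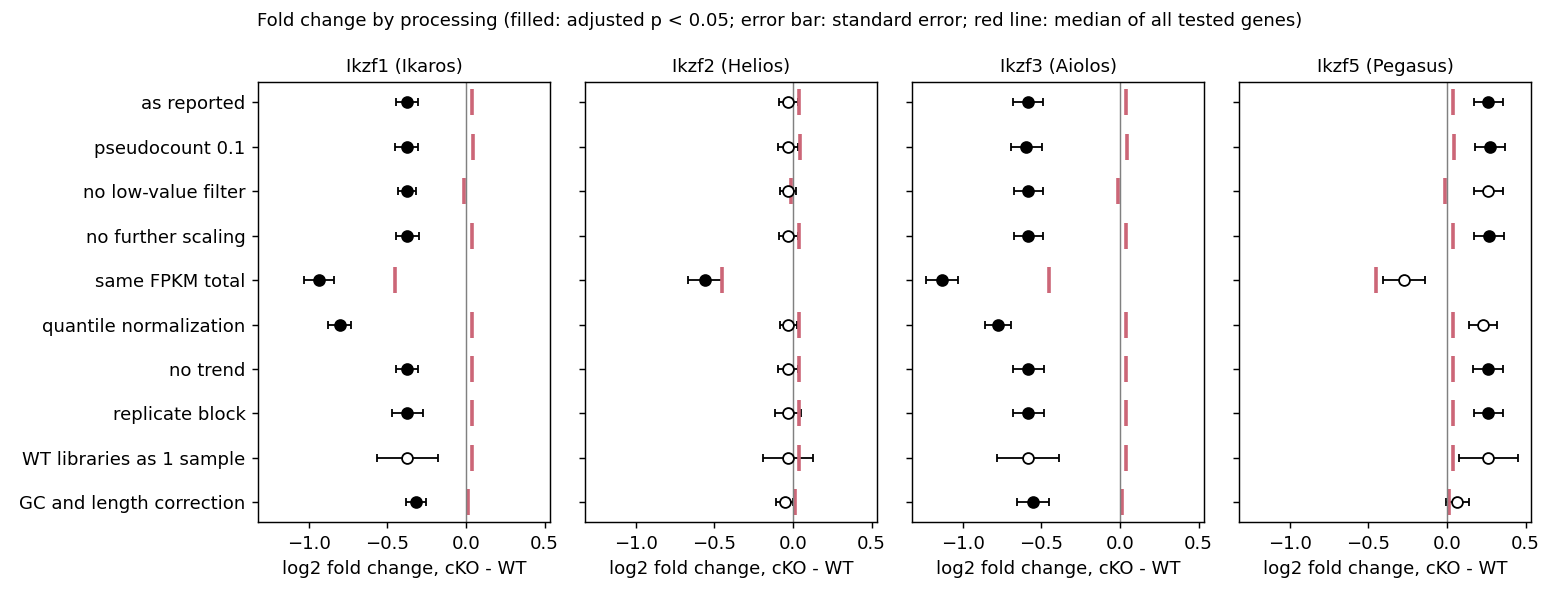
Log2 fold change, cKO minus WT (horizontal axis), of the 4 members under the reported processing and 9 alternatives (rows); filled points have an adjusted p under 0.05, error bars are standard errors and the red line is the median of all tested genes. Ikzf1 and Ikzf3 lie left of the red line in every row and Ikzf5 right of it, while the direction of Ikzf5 against 0 turns when libraries are scaled to the same FPKM total (-0.27).

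The balance between members was compared within libraries, since a log2 difference of 2 genes in the same library does not depend on a constant scaling factor per library. Over the 6 pairs of members, 5 differed between genotypes without overlap of the libraries, each with an exact two-sided permutation p of 0.1, the smallest that 3 libraries against 3 allow, and 0.12 after Benjamini-Hochberg adjustment over the pairs. No pair could therefore pass 0.05 in this design. The 6 pairs share 4 genes, and over all pairs of the 10296 tested genes above 0 in every library, 69.8% had differences that did not overlap between genotypes, so 5 of 6 is not far from the general rate.

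On deposited FPKM, the Ikzf3 to Ikzf5 balance had the largest genotype difference of the 6, at -0.87. The log2 FPKM of Ikzf3 exceeded that of Ikzf5 by 1.67, 1.61 and 1.62 in WT and by 1.15, 0.48 and 0.65 in cKO, so the ratio of Aiolos to Pegasus mRNA went from 3.10 to 1.70. The log2 difference of Ikzf1 over Ikzf5 was 3.26, 3.17 and 3.20 in WT and 2.65, 2.44 and 2.59 in cKO, a ratio of 9.26 in WT and 5.89 in cKO. The genotype difference (cKO minus WT) was -0.34 for Ikzf1 over Ikzf2 (Ikaros to Helios), 0.56 for Ikzf2 over Ikzf3 (Helios to Aiolos) and -0.31 for Ikzf2 over Ikzf5 (Helios to Pegasus).

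These sizes changed when the log2(FPKM + 1) values were normalized in ways that do not act as a constant per library, which were chosen after seeing the data. The pairs with Ikzf5 moved most towards 0 when base composition and transcript length were regressed out, to -0.62 for Ikzf3, -0.38 for Ikzf1 and -0.12 for Ikzf2, each against Ikzf5. Quantile normalization gave -1.005, -1.031 and -0.26 for the same pairs, so Ikzf1 over Ikzf5 then had the largest difference. For Ikzf1 over Ikzf2 the values were -0.27 and -0.77, and for Ikzf2 over Ikzf3 they were 0.50 and 0.75, in the same order of methods. The groups of these 5 pairs did not overlap under either method, for which the share over all gene pairs was not computed.

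Ikaros and Aiolos, which can pair with each other, had overlapping ratios in the genotypes. The log2 difference of Ikzf1 over Ikzf3 was 1.59, 1.57 and 1.58 in WT and 1.50, 1.96 and 1.93 in cKO (difference 0.22, exact two-sided permutation p = 0.4). The library cKO 1 lay below WT and cKO 2 and cKO 3 above it. Without cKO 1, the library that made the groups overlap, the difference was 0.37 and the groups did not overlap. The exact permutation p was then 0.2, the smallest that 3 libraries against 2 allow, and the share over all gene pairs was not computed. The difference was 0.14 without cKO 2 and 0.15 without cKO 3 (exact permutation p = 0.8 for each). Under quantile normalization it was -0.027, and 0.24 with base composition and length regressed out.

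**Figure D3:**
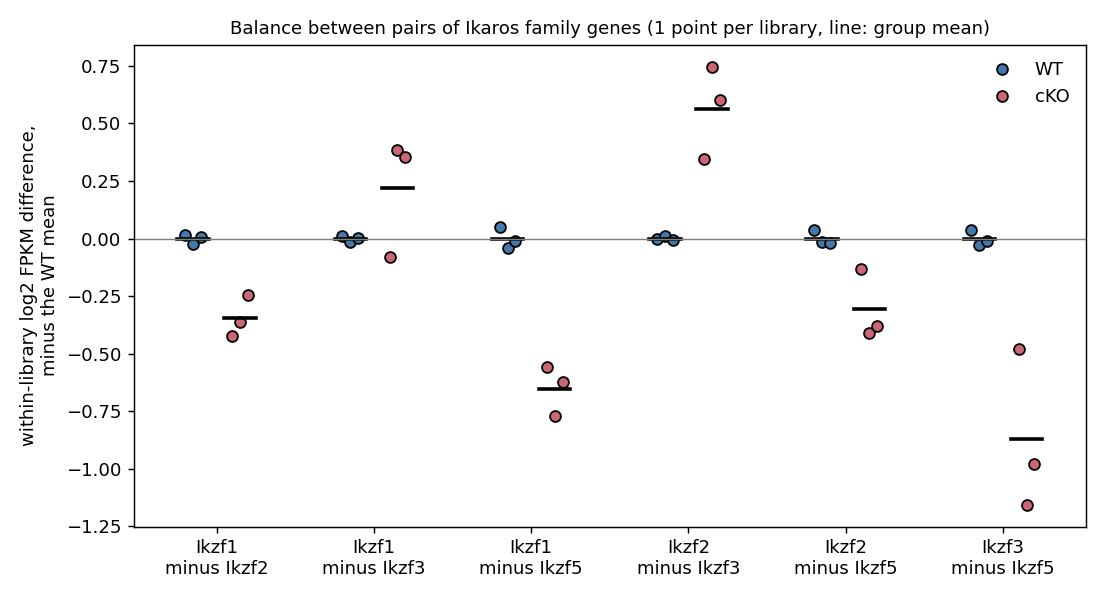
Log2 FPKM difference between pairs of members within each library, minus the WT mean of that pair (vertical axis); 1 point per library, lines are group means. The WT points lie close to 0, the cKO points of 5 pairs lie on one side of all WT points, and those of Ikzf1 minus Ikzf3 lie on both sides.

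The 4 members together summed to 278 ± 2.93 scaled FPKM in WT and 220 ± 5.38 in cKO (SD, n = 3), without overlap. Groups failed to overlap in 72.5% of single tested genes, and no such rate was computed for sums or shares. Ikzf1 made up 65.3% ± 0.317 of this sum in WT and 63.6% ± 2.07 in cKO, and these shares overlapped. The share of Ikzf3 was 21.9% ± 0.0841 in WT and 18.4% ± 2.85 in cKO, where cKO 1, at 21.7%, lay just below the lowest WT library at 21.8%. The shares of Ikzf5 and Ikzf2 were larger in every cKO library, at 7.05% ± 0.192 and 10.8% ± 1.06 for Ikzf5 and 5.76% ± 0.0554 and 7.12% ± 0.264 for Ikzf2 in WT and cKO. Shares of the same sum depend on each other, so a share can rise without a rise of the gene itself. The level of Ikzf2 overlapped between genotypes (log2 fold change -0.031).

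Ikzf4 (Eos), a further family gene in the files that was not among the members, was listed at 0.421, 0.511 and 0.297 FPKM in WT and at 0.0222, 0.0986 and 0.0503 FPKM in cKO. Every library was under the filter of 1 FPKM, so the gene was not tested. The cKO libraries lay below the WT libraries, and 1 fragment on the longest Ikzf4 transcript was worth 0.0097 to 0.0153 FPKM, so the cKO values rest on few fragments. With no filter on low values its log2 fold change was -0.41 (limma adjusted p = 0.00324).

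The proteins through which Ikaros acts were read from lists of known partners and targets, which are described by counts and medians without a test of the list. All lists stand against a background in which 35.8% of tested genes were called higher and 29.8% lower, with a median log2 fold change of 0.039. Of 13 NuRD subunits, all tested, 4 were higher, 7 lower and 2 not called in cKO, with a median of -0.32. The ATPases of the complex were lower. Chd4, also known as Mi-2 beta and the main Ikaros-bound ATPase, was at 119.4, 117.8 and 117.9 FPKM in WT and 76.3, 64.4 and 74.9 FPKM in cKO (log2 fold change -0.72), and Chd3 had a log2 fold change of -1.18. The MTA scaffold Mta1 (-1.09), the methyl-CpG binding subunits Mbd3 (-0.59) and Mbd2 (-0.48), and Gatad2a (-0.49) and Gatad2b (-0.32) were also called lower. In contrast, the deacetylases Hdac2 (0.69) and Hdac1 (0.58) and the histone chaperones Rbbp7 (0.83) and Rbbp4 (0.35) were called higher. Mta2 (-0.013) and Mta3 (0.18) did not pass the test.

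Among 8 other chromatin partners of Ikaros, 7 were tested, with 3 higher, 2 lower and a median of 0.13. The SWI/SNF ATPase Smarca4 (log2 fold change -0.71) and the corepressor Ctbp1 (-0.49) were lower. The Polycomb proteins Ezh2 (0.40) and Eed (0.31) and the corepressor scaffold Sin3b (0.35) were higher, whereas Suz12 (-0.14) and Sin3a (0.13) did not pass the test. Ctbp2 was under 1 FPKM in every library.

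Of 11 genes for the modification and turnover of Ikaros proteins, all tested, 6 were higher, 1 lower and 4 not called, with a median of 0.19. Cereblon (Crbn), the substrate receptor through which thalidomide analogs direct Ikaros and Aiolos to degradation in human cells, was at 24.2, 24.8 and 24.4 FPKM in WT and 32.1, 34.7 and 34.1 FPKM in cKO (log2 fold change 0.44, standard error 0.059, limma adjusted p = 0.000754). Its ligase partners Rbx1 (0.60), Cul4b (0.40) and Ddb1 (0.32) were also higher, and Cul4a (-0.10) did not pass the test. For casein kinase 2, which phosphorylates Ikaros, the regulatory subunit Csnk2b was higher (0.53), the catalytic subunit Csnk2a2 lower (-0.62), and Csnk2a1 (-0.10) did not pass. Among the subunits of protein phosphatase 1, which opposes that kinase on Ikaros, Ppp1cb was higher (0.19), and Ppp1ca (0.18) and Ppp1cc (0.0060) did not pass.

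The counts of partner genes shifted with the processing. With libraries scaled to the same FPKM total, where 8.74% of all genes were called higher and 59.9% lower, NuRD had 1 higher and 10 lower, the other partners 0 and 5, and the modification genes 0 and 7. Under quantile normalization (33.7% of all genes higher and 29.4% lower), these counts were 2 and 8, 1 and 4, and 3 and 3. With base composition and transcript length regressed out (30% higher and 27.2% lower), they were 5 and 5, 2 and 1, and 2 and 1.

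Genes driven by Notch and restrained by Ikaros were lower or not called in cKO. Of 8 such genes, all tested, 0 were higher and 6 lower, with a median of -0.57, and 0 were higher in limma also at an unadjusted p under 0.05. The receptor Notch3 was at 8.28, 8.61 and 7.80 FPKM in WT and 2.16, 2.36 and 2.55 FPKM in cKO (log2 fold change -1.46). The Notch target Dtx1, a ubiquitin ligase, had a log2 fold change of -1.26, Notch1 of -0.97, Myc of -0.61, Hes1 of -0.52 and the interleukin 2 receptor chain Il2ra of -0.45. Nrarp (-0.084) and Ptcra (0.032), the pre-T cell receptor chain, did not pass the test. Without cKO 2, 1 of the 8 genes was called higher.

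Of 11 lymphocyte genes known to be under Ikaros control, 10 were tested, with 7 higher, 2 lower and a median of 0.48. The higher genes were Dntt (terminal transferase, log2 fold change 0.91), the coreceptor genes Cd8b1 (0.84), Cd8a (0.68) and Cd4 (0.40), the recombinase genes Rag1 (0.61) and Rag2 (0.56), and the survival gene Bcl2l1 (0.26). All of these except Bcl2l1 are also DP markers. The interleukin 7 receptor Il7r, at 5.86, 6.00 and 5.90 FPKM in WT and 1.22, 1.22 and 1.06 FPKM in cKO (-1.67), also a marker of mature cells, and Bcl2 (-1.01) were lower. Vpreb1 (-0.12) did not pass the test. These counts turned with scaling, to 2 higher and 4 lower with the same FPKM total and to 1 and 4 under quantile normalization.

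Genes of agonist selection, the setting in which Helios is switched on, were mostly lower. Of 12 genes, 11 were tested, with 1 higher, 8 lower and a median of -0.97. The lower genes were Ctla4 (log2 fold change -1.52), Nr4a1 (-1.21), Tnfrsf4 (-1.14), Nr4a3 (-1.05), Tnfrsf9 (-0.98), the death effector Bcl2l11 (-0.97), Egr2 (-0.76) and Il2ra. The inhibitory receptor Pdcd1 was higher (0.69), and Cd5 (-0.058) and Tnfrsf18 (0.027) did not pass the test. Ikzf2 itself was not called in the same libraries (-0.031). Foxp3, the regulatory T cell factor, was listed at 0.315 to 0.346 FPKM in WT and 0 to 0.114 FPKM in cKO, under the filter, and Tnfrsf9 passed it through the WT libraries alone. When WT entered as a single averaged sample, 4 of these genes and 3 of the Notch-driven genes were called lower.

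Markers of other cells moved with the genotype beside these gene groups, and their part in the results was not tested. Of 9 mature single positive (SP) markers, 7 were lower, with a median of -1.73, led by Ccr7 (-2.64) and S1pr1 (-2.21, which passed the filter through WT alone), although their summed level overlapped (675 to 683 FPKM in WT and 521 to 713 in cKO) because Cd52, which did not pass the test, dominates the sum. Of 6 markers of double negative thymocytes, 1 was tested (Il2ra, lower), which is also counted among the Notch-driven and agonist selection genes. The sum was 6.43 to 6.86 FPKM in WT and 3.65 to 4.96 in cKO. It came mostly from Il2ra, and 5 markers were under 1 FPKM in every library. Erythroid markers summed to 1.97 to 2.71 FPKM in WT and 12.2 to 26.4 in cKO, with 2 of the 6 found in the files tested and both higher, although Hba-a1 reached the filter in 1 WT library alone beside all cKO libraries. B cell markers summed to 23.0 to 24.6 and 26.8 to 39.7 FPKM, nearly all from Cd79b, while Ms4a1 and Pax5 were under 1 FPKM in every library. Myeloid markers summed to 6.62 to 8.60 and 9.40 to 10.5 FPKM (1 of 4 tested higher), NK cell markers to 6.29 to 8.11 and 3.64 to 3.94 FPKM (1 of 1 lower), and thymic epithelial markers to 3.54 to 3.94 and 1.91 to 3.62 FPKM (1 tested, not called), with Krt5 and Foxn1 at 0 throughout.

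**Figure D4:**
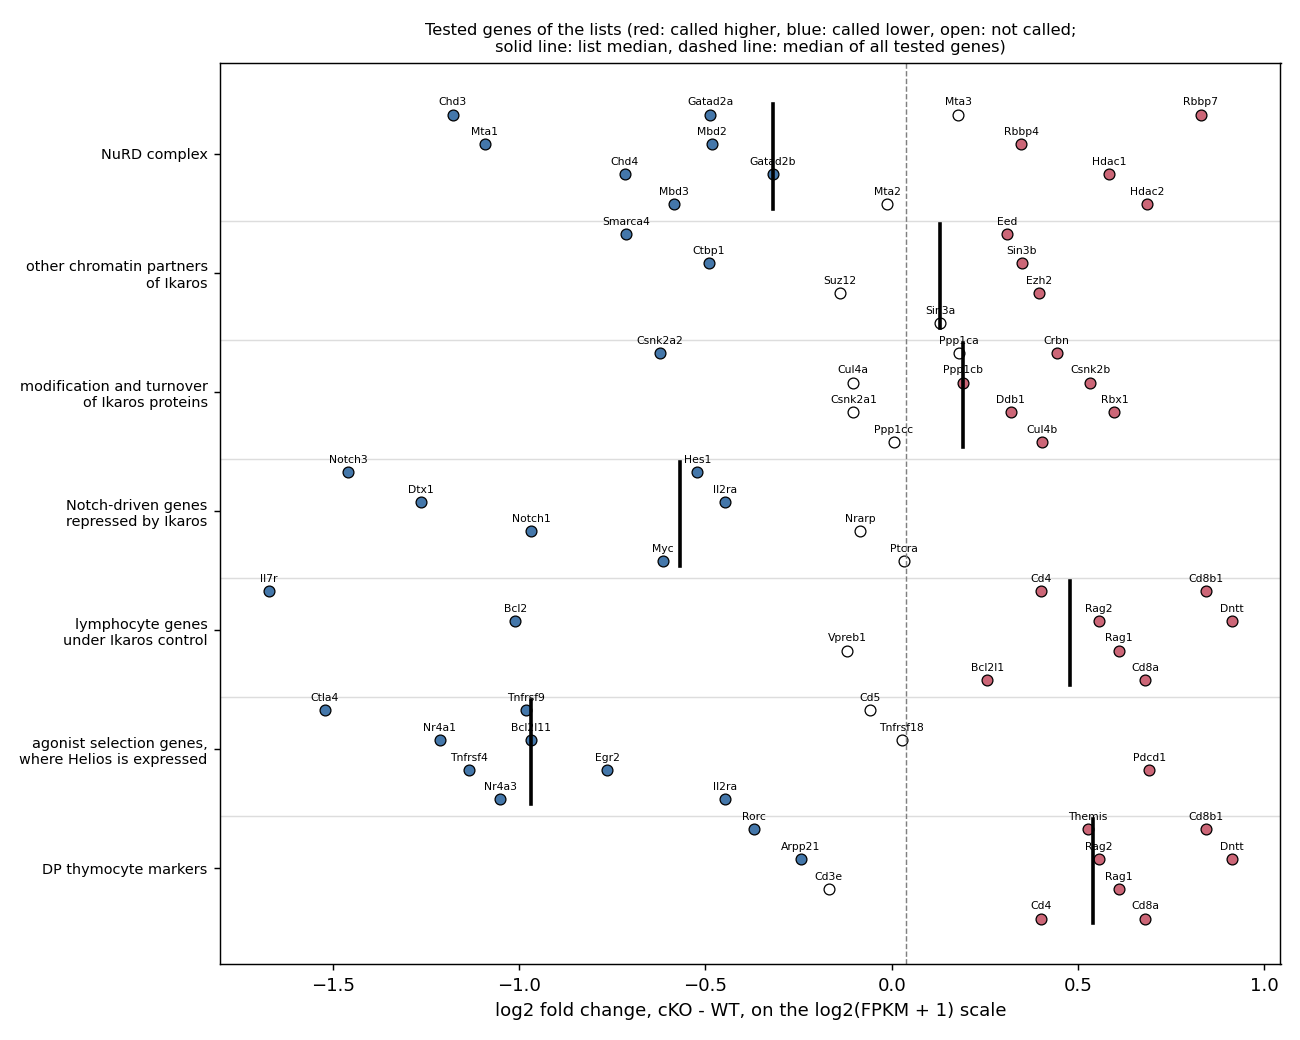
Log2 fold change, cKO minus WT, on the log2(FPKM + 1) scale (horizontal axis), of the tested genes in 6 partner and target lists and in the DP marker list (rows); red points were called higher, blue lower, open points not called, solid lines are list medians and the dashed line is the median of all tested genes (0.039). NuRD genes fall on both sides of the dashed line, and called genes of the Notch-driven list lie to its left.

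The genes whose pattern over the 6 libraries was most like that of each member were found among the 7983 tested genes with a mean of at least 5 FPKM, by the root-mean-square (RMS) difference in centred log2(FPKM + 1). The closest to Ikzf1 were Mia3 (RMS difference 0.020), P2rx1 (0.021) and Glud1 (0.023), and the closest to Ikzf3 were Arhgef2 (0.023), Numa1 (0.026) and Tmem131 (0.031). The closest to Ikzf5 were Zfp58 (0.028), Tmx3 (0.029) and Usp37 (0.029), and the closest to Ikzf2 were Ehmt1 (0.018), Slk (0.019) and Tubb2a (0.020). For all members the spread in these patterns includes the genotype difference itself.

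The genes next to the members did not all move with them. Ikzf1 and Ikzf3 share chromosome 11 with the targeted gene, at distances of 65.3 Mb and 21.4 Mb from Nsrp1, and among 879 tested genes of that chromosome 292 were higher and 297 lower, with a median log2 fold change of -0.019. The nearest tested gene to Ikzf1, Fignl1, 14.5 kb away, was higher in cKO (log2 fold change 1.19), opposite to Ikzf1. Next to Ikzf3, Zpbp2 (0.26), Ormdl3 (-0.31) and Pgap3 (-0.20) did not pass the test, and Mien1 was higher (0.39).

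Ikzf5 shares its start region with Acadsb, a short and branched chain acyl-CoA dehydrogenase gene on the opposite strand, across the 79 bases printed above. Acadsb was at 5.89, 5.49 and 5.52 FPKM in WT and 8.07, 7.69 and 8.09 FPKM in cKO (log2 fold change 0.43, limma adjusted p = 0.00145), so both genes of this head-to-head pair were called higher, as were 35.8% of all tested genes. Of the next tested genes around the pair, the spindle checkpoint gene Bub3, 149.7 kb away, was higher (0.88), 2310057M21Rik, 25.9 kb away on the other side, was higher (0.27), and Plekha1, 475.3 kb away, was lower (-0.61). In the annotation, Pstk on the opposite strand also overlaps the Ikzf5 gene, over an extent that was not measured. Pstk was at 7.57 to 9.59 FPKM in WT and 8.41 to 10.01 FPKM in cKO (log2 fold change 0.092, limma adjusted p = 0.482). Fgfr2, with a long transcript that overlaps Ikzf5 on the same strand, was at 0 in all libraries. The library kit keeps strand, but the strand setting of the quantification is not given in the sources used here, so reads of Ikzf5 and Pstk may not be fully separated.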

How the data were processed

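Sorted DP thymocytes of WT and NSrp70-cKO mice were measured by poly(A) mRNA-seq. Per the study's methods and the processing notes, the authors aligned trimmed paired-end reads to mm10 with TopHat, and the deposited FPKM values, 1 per symbol and library, came from Cufflinks. Tool versions, gene annotation and strand setting are not given in the sources used here. Genotypes came from the labels. From the FPKM values, libraries were divided by median-of-ratios size factors, and log2(FPKM + 1) of genes at 1 FPKM or more in at least 3 libraries was fitted with limma 3.58.1 (lmFit, eBayes with trend) in R 4.3.3, at a Benjamini-Hochberg threshold of 0.05. Fold changes on this scale understate low genes. Within-library differences of member pairs used deposited FPKM without a pseudocount and an exact permutation test. Depth was estimated at single-transcript genes with an assumed fragment length of 200 nucleotides, where 70.5% to 77.9% of low values fell within 0.1 of a whole fragment, so whole reads were not recovered and no count test was run. On simulated data (10173 genes), 87 of 100 genes with a 2-fold change and 98 of 100 with a 4-fold change were called. In the same simulation, 17 unchanged genes were called. Few genes were changed there, whereas 65.5% of tested genes were called in the data. The simulated libraries were also independent, with the same spread in both genotypes. In the data the spread was smaller in WT, and the libraries of a group may be technical replicates. The 17 calls are therefore not an error rate for these data. Both sizes exceed the log2 fold changes of the members (-0.58 to 0.26), so power at those changes was not measured. Symbols were matched to GENCODE mouse release M21, 22112 directly and 640 through synonyms. Python 3.11.15, numpy 2.4.6, pandas 2.3.3, scipy 1.17.1 and matplotlib 3.10.9 were used.

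The members and the 14 lists (6 of partners and targets, 8 of cell type markers) were chosen with earlier results of these data known. The text names the members, the targeted gene, genes of the lists, including up to 3 per direction with the lowest adjusted p, and the 3 genes closest to each member in pattern. Ikzf4 and the genes next to the members were added after their values were seen. Some genes of the marker lists are not reported here. Pseudocount, filter, scaling, trend, replicate block, WT libraries as 1 sample, GC and length correction and each library left out were tried as alternatives. Quantile normalization and the GC and length correction of the member pairs were added after seeing the data.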

Additional observations from a re-analysis of the deposited data

How the results depend on the processing

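The decrease of Ikzf1 and of Ikzf3 kept its direction and call under every alternative except the WT libraries counted as 1 sample, where the adjusted p-values were 0.190 and 0.0773 at unchanged log2 fold changes of -0.37 and -0.58. Leaving out 1 library gave -0.40 to -0.32 for Ikzf1, -0.68 to -0.52 for Ikzf3, -0.053 to -0.012 for Ikzf2 and 0.19 to 0.36 for Ikzf5. The Ikzf5 call (0.26) was lost with the WT libraries as 1 sample (0.26, adjusted p = 0.324), with no filter on low values (0.26, 0.0602), under quantile normalization (0.23, 0.0633), after the GC and length correction (0.065, 0.472) and without each library except cKO 1, and its direction turned with the same FPKM total (-0.27, 0.106). Ikzf2 passed the test with the same FPKM total (-0.56, adjusted p = 0.00259). Counts of called list genes, higher then lower, that moved by more than 1.5 times were as follows. With the same FPKM total, NuRD had 1 higher, other partners 0 and 5, modification genes 0 and 7, lymphocyte genes 2 and 4, and agonist selection genes 0 higher. Under quantile normalization, NuRD had 2 higher, other partners 1 and 4, modification genes 3 and 3, and lymphocyte genes 1 and 4. With the WT libraries as 1 sample, NuRD had 1 and 2, other partners 0 and 0, modification genes 0 and 0, Notch-driven genes 3 lower, lymphocyte genes 0 higher, and agonist selection genes 0 and 4. After the GC and length correction, other partners had 1 lower, modification genes 2 higher and agonist selection genes 2 higher. Leaving out 1 library gave 1 to 2 lower modification genes and 0 to 1 higher Notch-driven genes, the higher value of each without cKO 2. The difference of Ikzf1 minus Ikzf3 (0.22) turned to -0.027 under quantile normalization, an alternative chosen after seeing the data. The causes were not tested. The other 256 values computed under alternatives kept direction and call, or stayed within 1.5 times the count. These include differences of member pairs, which could not be called under any setting, so for them only the direction could change. Depth limits Ikzf4, whose cKO values rest on few fragments.

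With the replicate number as a block, the adjusted p was 0.0154 for Ikzf1 (-0.37), 0.00302 for Ikzf3 (-0.58), 0.0422 for Ikzf5 (0.26) and 0.763 for Ikzf2 (-0.031), and no call of a member changed. Each genotype holds the same replicate numbers, so the block cannot change the differences of member pairs. These stayed at -0.34, 0.22, -0.65, 0.56, -0.31 and -0.87 in the order of the plot of pairs. With the block, the smallest possible exact p was 0.25. Same-numbered libraries did not deviate together (correlations of -0.022, 0.038 and 0.031). Because WT libraries differed little beyond counting noise, these correlations cannot tell whether the numbers pair the samples.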
